A study of Mus musculus with 96 samples.

Results

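The myogenic factors and their MEF2 partners described here are 8 genes of the 56748 in the count table, taken by name: the myogenic regulatory factors Myf5, Myod1, Myog and Myf6, the paired box factor Pax7, and the MEF2 factors Mef2a, Mef2c and Mef2d. Myogenic regulatory factors are basic helix-loop-helix proteins that pair with E proteins, bind E-boxes and switch on muscle genes. Pax7 marks satellite cells, the stem cells that lie beside muscle fibres. MEF2 factors are MADS-box proteins that act with the myogenic factors in muscle and also serve in neurons.

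The mRNA of skeletal muscle, liver and cerebral cortex was sequenced in C57BL/6 mice that ate ad libitum (AL) or fasted intermittently (IF). Male mice 1 to 16 held 8 AL mice (1 to 8) and 8 IF mice (9 to 16), which started the diets at 6 weeks of age, kept them for 4 months and, when on IF, went without food for 16 h each day, from 16 to 8 o'clock. Mice 25 to 40 are labelled female and held 8 AL mice (25 to 32) and 8 IF mice (33 to 40). The length of their diets, their age at the start and the hours of their fast are not given in the sources used here. Tissue of the male mice was taken between 7 and 12 o'clock, a span that includes the end of the fast, and the time for each mouse is not given in the sources used here. AL and IF mice were different animals, and by the labels the 3 libraries with 1 number came from 1 mouse. Which muscle was taken is not stated.

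The labels held against the tissue markers: the summed level of 5 muscle fibre genes lay between 86662 and 112399 CPM (counts per 1000000 counted reads of the library) in muscle, with Acta1 the most abundant, and at most 8.42 CPM in liver. Cortex held between 43.1 and 84.5 CPM of these genes, most of it Pygm. The cortex library of AL mouse 1 went against its label, with 213 CPM of Xist and no count of Ddx3y, Kdm5d, Eif2s3y or Uty, where the other 47 libraries of mice 1 to 16 had at most 0.612 CPM of Xist and at least 25.1 CPM of Ddx3y. It was left out throughout. By counts its nearest library was the cortex of IF mouse 40, at 3.46 times the squared difference that counting noise gives. The next nearest cortex pair lay at 4.90 times that squared difference. The remaining 95 libraries held between 26097314 and 49838004 counts.

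In muscle the order of levels was set per length, as CPM per kilobase of the gene length in the authors' table. Myf6, the myogenic factor of mature fibres, stood highest in every group, with a median of 60.6 CPM per kilobase in AL mice 1 to 8, and Mef2d followed at 25.5. Mef2c came next at 19.1 and Myod1 at 18.8 CPM per kilobase, and these neighbours were not separated, since Mef2c exceeded Myod1 in only 5 of the 8 mice. Mef2a lay at 4.79 and Myog at 3.27 CPM per kilobase, with no overlap between them in AL mice 1 to 8. Myf5 (0.445 CPM per kilobase) and Pax7 (0.392) were lowest, and their ranges overlapped.

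The order was the same by median in the other 3 muscle groups, but some neighbours moved closer or farther apart. In IF mice 9 to 16 Myod1 had a median of 12.6 CPM per kilobase beside 18.7 for Mef2c (higher in 6 of 8 mice), and Mef2a (5.75) and Myog (4.42) overlapped, with Mef2a higher in 5 of 8 mice. In AL mice 25 to 32 Mef2c lay at 26.3 CPM per kilobase and Myod1 at 10.5, with Mef2c higher in 8 of 8 mice and no overlap. Mef2d and Mef2c overlapped in both diets of mice 25 to 40, and Mef2d was higher in 6 of 8 AL and 8 of 8 IF mice.

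Liver held almost none of the muscle-specific members. Myod1 and Myog had no count in any of the 32 liver libraries, which put Myod1 at least 416.5-fold higher in AL muscle of mice 1 to 8, against a floor of 3 counts in each library, and Myog at least 51.8-fold higher. Myf6 had no count in the liver of AL mice 25 to 32, and its muscle level was at least 908-fold higher, while in mice 1 to 16 it reached 8 counts in a liver library. Pax7 was at most 3 counts and Myf5 at most 8 counts in any liver library. Floors from counts cover counting error only.

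The MEF2 genes were present in all 3 tissues but differed in reach. Mef2c was at 305 CPM (mean) in AL muscle of mice 1 to 8 and at 1.27 CPM in their liver, 241-fold lower. The same ratio of mean CPM was 3.18 for Mef2a and 5.44 for Mef2d. In AL mice 25 to 32 these ratios were 216 for Mef2c, 3.30 for Mef2a and 6.57 for Mef2d.

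Myf6 had at most 1 count in any cortex library used and none in AL mice 2 to 8, so that muscle was at least 939.99-fold higher. Myod1 was low in cortex but was counted in every library, with 0.265 CPM as the lowest value, 0.401 as the median and 0.733 as the highest in 7 AL mice of the first set, and with 0.330, 0.862 and 2.23 CPM in AL mice 25 to 32. In these 2 sets its mean in AL muscle was 84.0 times and 21.5 times that of cortex. Myog was at most 6 counts, Myf5 at most 4 and Pax7 at most 3 in any cortex library.

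Mef2c, by contrast, was about as abundant in cortex as in muscle by CPM, at 290.2 to 421 CPM (median 385) in AL mice 2 to 8. Mef2d lay at 129 to 258 CPM (median 177) and Mef2a at 90.6 to 107 CPM (median 98.3) in the same libraries. Mean CPM in muscle was 0.746 times that in cortex for Mef2a, 0.840 for Mef2c and 0.856 for Mef2d in these mice, and 1.11, 1.02 and 1.05 times in AL mice 25 to 32.

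edgeR's fit across tissues, with TMM scaling and Benjamini-Hochberg adjustment, called all 8 members higher in AL muscle. The shares of all genes called in either direction were 80.9% against liver and 81.4% against cortex in mice 1 to 16, and 80.6% and 81.2% in mice 25 to 40, so a count of 8 of 8 is read beside a background in which most genes differ. Of all genes, 8072 and 7126 of 19759 were called higher in muscle than in liver and cortex in mice 1 to 16, and 8173 and 7091 of 19580 in mice 25 to 40. The members were named for muscle, which fixes the direction for most of them. Myf5, Myog, Myf6 and Pax7 also passed the expression filter through muscle alone. With at least 10 counts asked of each library, only 3 members were tested. In mice 1 to 16 the direction of the MEF2 genes against cortex rests on the scaling, while in mice 25 to 40 both scalings put them higher in muscle. After TMM, Mef2c was 0.80 higher in muscle on the log2 scale in mice 1 to 16, while its plain CPM was lower there. For Myod1 the fold over cortex was 172 in mice 1 to 16 and 39.8 in mice 25 to 40 after TMM. By plain CPM these folds were 84.0 and 21.5. In mice 1 to 16 the TMM factors lay between 0.729 and 0.793 for muscle and between 1.55 and 1.60 for cortex, and the 10 most abundant genes took a median of 26.6% of muscle and 7.49% of cortex counts.

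**Figure D1:**
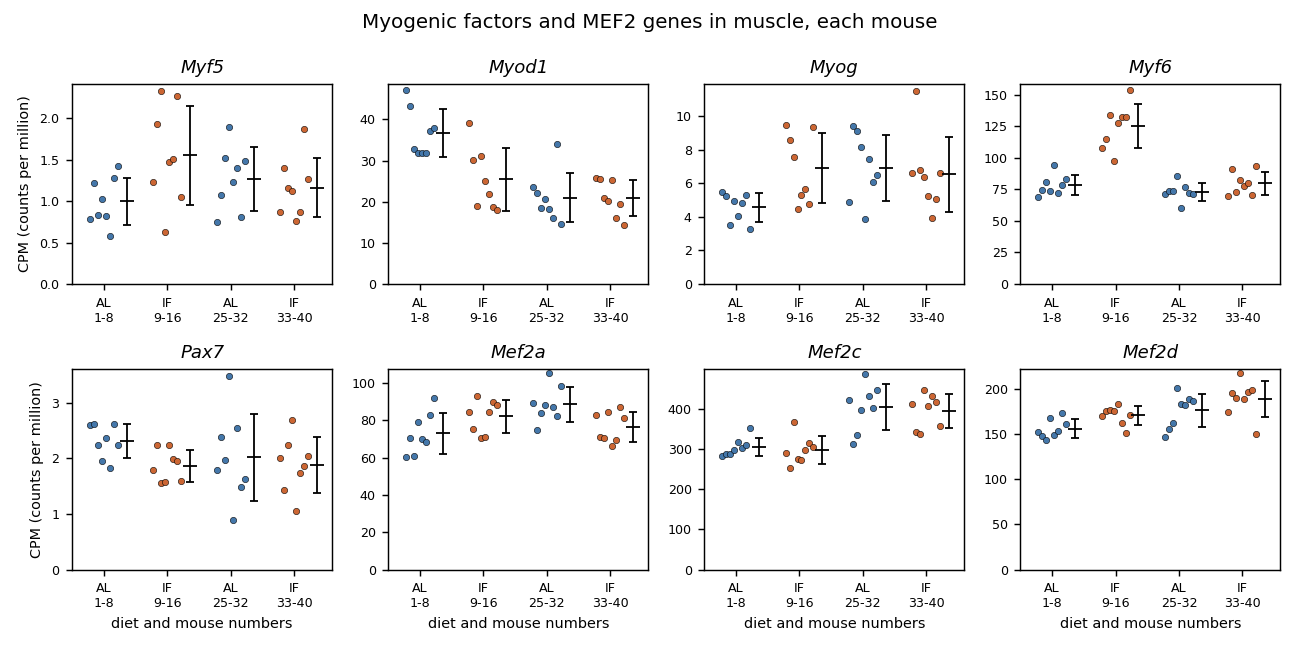
Level of each member in every muscle library, in CPM on a linear axis from 0, by diet and mouse number; points are mice, and the bar beside each group is the mean with its SD (n = 8). Myf6 in IF mice 9 to 16 (97.5 to 154 CPM) lies above all AL mice 1 to 8 (68.9 to 94.3 CPM).

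In muscle of mice 1 to 16, fasting went with higher Myf6 and Myog and lower Myod1 mRNA, while the 3 MEF2 genes did not pass the test. Of the 8 members tested, 3 had an adjusted p under 0.05 (called), 2 higher and 1 lower in IF mice, where 23.0% of the 15025 genes tested were called, 11.5% higher and 11.6% lower. The median log2 fold change of the members was 0.08, and over all genes it was 0.01. DESeq2 called 4 of the 8 and 3828 of all genes, and 5 of the 8 and 5309 of all genes had an unadjusted p under 0.05 in edgeR. In bulk tissue, fewer cells of a type and less RNA per cell cannot be told apart.

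Myf6, also known as MRF4, ranged from 68.9 CPM through a median of 76.5 to 94.3 in AL mice and from 97.5 through 130.1 to 154 in IF mice. All 8 IF mice lay above all 8 AL mice, and the diets overlapped in the other members. The share of all genes without such overlap is not given here, so this is a description only. Its means were 78.3 ± 8.08 CPM (SD, n = 8) and 125 ± 17.7 CPM (SD, n = 8), a log2 fold change of 0.61 (standard error 0.08; edgeR, adjusted p = 1.50e-05).

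Myod1, which commits cells to the muscle lineage and is expressed in fast fibres of the adult, ranged from 31.7 CPM through 34.95 to 47.1 in AL mice and from 18.1 through 23.5 to 39.2 in IF mice. In 7 of 8 IF mice it was below every AL mouse, and IF mouse 9 held the highest IF value. It fell by 0.60 on the log2 scale (standard error 0.16; edgeR, adjusted p = 0.0130).

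Myog, the factor of terminal differentiation, ranged from 3.24 CPM through 4.89 to 5.45 in AL mice and from 4.44 through 6.60 to 9.47 in IF mice. The groups overlapped, and 5 of 8 IF mice lay above every AL mouse. Its log2 fold change was 0.52 (standard error 0.18; edgeR, adjusted p = 0.0360). This call was lost in 7 of the 10 other settings tried and in 7 of the 16 fits without 1 mouse, with adjusted p up to 0.337, whereas Myf6 and Myod1 were called in all of them.

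Myf5, the earliest of the myogenic factors, was near 1 CPM, with 0.583, 0.927 and 1.43 CPM as the lowest, median and highest AL values and 0.622, 1.49 and 2.33 as those of IF. In 5 of 8 IF mice it was above every AL mouse and in 7 above the AL median, while IF mouse 12 held the lowest IF value. Its log2 fold change of 0.57 had a 95% interval from 0.05 to 1.08 and did not pass (edgeR, adjusted p = 0.107). Without IF mouse 12 it was 0.69 with adjusted p = 0.0284, while without any other single mouse adjusted p lay above 0.05 and reached 0.217.

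Pax7 had values of 1.82, 2.30 and 2.62 CPM in AL mice and 1.55, 1.87 and 2.25 CPM in IF mice. All 8 IF mice lay below the AL median, but only 4 below every AL mouse. The log2 fold change of -0.37 (95% interval -0.66 to -0.08) just missed the threshold in edgeR (adjusted p = 0.0564). DESeq2 called it (adjusted p = 0.0428), and over the 10 other settings adjusted p ranged from 0.0428 to 0.250.

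The MEF2 genes differed little between the diets. Mef2c, with 283, 300.3 and 353 CPM in AL and 253, 294 and 369 CPM in IF mice, had a log2 difference of -0.10 (95% interval -0.25 to 0.04; edgeR, adjusted p = 0.309), and its direction turned, to 0.08, with the adipocyte sum described below as a covariate, while without 1 mouse it lay between -0.16 and -0.07 (adjusted p 0.0560 to 0.487). For Mef2a the values were 60.3, 70.3 and 92.1 CPM against 70.3, 84.4 and 93.1 CPM, a log2 difference of 0.10 (95% interval -0.07 to 0.27; edgeR, adjusted p = 0.395), which lay between 0.08 and 0.23 over the 10 other settings and was called in none of them. Both genes overlapped over most of their ranges. Mef2d, at 144, 152 and 173 CPM in AL and 150.3, 173 and 183 CPM in IF mice, differed by 0.06 (95% interval -0.06 to 0.17; edgeR, adjusted p = 0.479). Mef2a was above the AL median in 8 of 8 IF mice, Mef2d in 7 and Mef2c in 3.

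**Figure D2:**
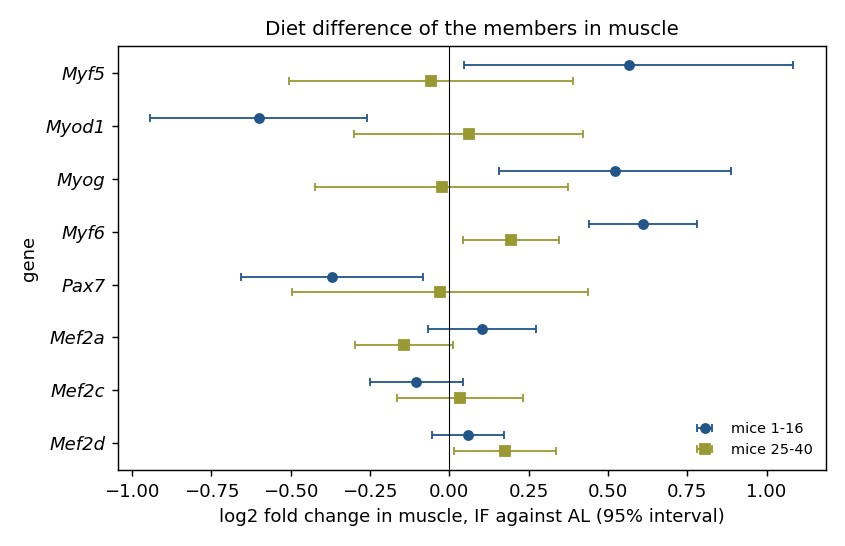
Log2 fold change in muscle, IF against AL, for each member with its 95% interval (edgeR), in mice 1 to 16 (circles) and mice 25 to 40 (squares). In mice 1 to 16 the intervals of the myogenic factors and Pax7 do not reach 0 and those of the MEF2 genes do; these intervals are not adjusted for the number of genes tested.

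Other cell types varied between the same muscle libraries. The summed level of 5 adipocyte markers was 11.5 CPM at the lowest, 40.3 at the median and 142 at the highest in AL mice 1 to 8, and 45.5, 221 and 717 CPM in IF mice 9 to 16. Of the 5 genes, 4 were called higher in IF mice (Adipoq, Plin1, Cidec and Retn), and Cidec was the most abundant. The median log2 fold change of the 5 genes was 2.20, and the highest was 2.52. Lep, the remaining one, went the other way (log2 -1.25) and was not called, with a median of 3.93 CPM in AL and 2.90 CPM in IF mice. IF mice 9, 10 and 12 held the highest sums, at 355, 497 and 717 CPM. With these 3 mice left out, the log2 fold change of Myf6 was 0.73 and that of Myod1 was -0.90, and with the sum as a covariate they were 0.82 and -0.89. Myog fell to 0.44 and 0.35 in these 2 fits, with adjusted p = 0.0586 and 0.337, and Myf5 rose to 0.72 and 0.91, with adjusted p = 0.0355 and 0.0445 (edgeR). Among mice of the same diet in mice 1 to 16, Mef2c and Myf6 varied against this sum (r = -0.741 and -0.673), and r was -0.424 for Myf5 and 0.422 for Myod1 (not tested). These fits were chosen after the data had been seen.

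Among fibre markers, the fast type differed little in sum and the oxidative and slow types varied widely. The fast fibre genes summed to a median of 65321 CPM in AL and 67134 CPM in IF mice, most of it Myh4, and none of the 4 was called in edgeR. Myh2 of oxidative fibres had 399, 765 and 1505 CPM in AL and 77.7, 521 and 818 CPM in IF mice, and its log2 difference of -0.94 did not pass (edgeR, adjusted p = 0.0963). The 4 slow fibre genes summed to between 8.21 and 1296 CPM (median 451) in AL mice and between 18.9 and 425 CPM (median 289) in IF mice, a spread between libraries far beyond that of any member, and their log2 differences, from -1.26 to -0.77, did not pass either. With this sum as a covariate the log2 fold changes were 0.62 for Myf6 and -0.65 for Myod1, and that of Myog was 0.52 (edgeR, adjusted p = 0.0522). Of the other lists, 1 of 5 fibre genes, 2 of 4 fibroblast genes, 1 of 4 endothelial and 1 of 4 macrophage genes tested were called, each lower in IF mice (Ckm; Col1a1 and Col3a1; Kdr; Csf1r). None of the Schwann cell, blood, proliferation, liver or neuron genes tested was called. The part of these cell types in the result was not tested beyond these fits.

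Satellite cell markers went in both directions, 7 higher and 5 lower. Of 12 tested, beside 23.0% of all genes called, Vcam1 was called higher (log2 0.52) and Heyl and Itga7 lower (-0.51 and -0.27) in IF mice, and their median log2 fold change was 0.05 beside 0.01 over all genes. The list was led by Itga7, which fibres also express. Cdh15, which encodes M-cadherin, had medians of 27.1 and 25.7 CPM in AL and IF mice.

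In mice 25 to 40 no member was called in muscle (0 of 8 in edgeR, 2 of 8 at an unadjusted p under 0.05, and 0 of 8 in DESeq2). Over all 15308 genes tested only 1 was called (0.00653%), and 1644 had an unadjusted p under 0.05. Myf6 ranged from 60.4 CPM through 72.9 to 85.8 in AL and from 69.9 through 78.9 to 93.9 in IF mice, and the groups overlapped in most of their range. Its log2 fold change was 0.20 (95% interval 0.04 to 0.35; edgeR, adjusted p = 0.362). Myod1 had values of 14.7, 19.6 and 33.997 CPM in AL and 14.4, 20.5 and 25.7 CPM in IF mice, a log2 difference of 0.06 (95% interval -0.30 to 0.42). Without AL mouse 31, the highest for Myod1, it was 0.21 (edgeR, adjusted p = 0.653), and without any other mouse it lay lower. Myog had 3.88, 6.98 and 9.39 CPM in AL and 3.93, 6.49 and 11.5 CPM in IF mice, a log2 difference of -0.02 (95% interval -0.42 to 0.38). Myf5 and Pax7 differed by -0.06 and -0.03, with 95% intervals from -0.51 to 0.39 and from -0.50 to 0.44.

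Among the MEF2 genes in muscle of these mice, Mef2d had 147, 183 and 200.4 CPM in AL and 150.0, 193 and 218 CPM in IF mice, a log2 difference of 0.17 (edgeR, unadjusted p = 0.0351, adjusted p = 0.435). Mef2a was below the AL median in 8 of 8 IF mice, with 74.5, 87.6 and 105 CPM in AL and 66.1, 76.1 and 87.1 CPM in IF mice, and its difference of -0.14 did not pass (edgeR, adjusted p = 0.495). Mef2c differed by 0.03 (95% interval -0.17 to 0.23).

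The interaction of set and diet asks whether the response differed between the sets. It called 1 of the 8 members in muscle, Myf6, where 14.2% of 16346 genes were called. The response of Myf6 was 0.40 lower on the log2 scale in mice 25 to 40 (interaction -0.40, standard error 0.11; edgeR, adjusted p = 0.0159). For Myod1 the interaction was 0.68 (95% interval 0.18 to 1.18) and did not pass in edgeR (adjusted p = 0.0602), while DESeq2 called it (adjusted p = 0.0249), with a range of 0.0249 to 0.127 over the 4 other settings of the Myod1 interaction in muscle. Myog (-0.53, edgeR, adjusted p = 0.200) and Myf5 (-0.61, adjusted p = 0.230) did not pass, so that a different response of these genes was not shown. Of the markers of other cells, 3 of 5 adipocyte genes (median interaction -2.50), 1 of 4 endothelial genes and 1 of 12 satellite markers were called lower in the interaction. Of the muscle fibre genes, 3 of 5 were called higher (median 0.29). Sex, set and anything else that differed between the sets cannot be told apart.

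The sets also differed in level. With the diets averaged, 3 of 8 members were called in muscle, where 44.8% of 16346 genes were called. Mef2c was higher in mice 25 to 40, with 312, 413 and 488 CPM in AL and 337, 409.7 and 448 CPM in IF mice, a log2 difference of 0.35 (standard error 0.06; edgeR, adjusted p = 1.84e-05). Myod1 was 0.60 lower (log2 -0.60; edgeR, adjusted p = 0.000202) and Myf6 was 0.43 lower (log2 -0.43; edgeR, adjusted p = 1.66e-07). This average hides values by diet, though the interaction passed for Myf6 and not for Myod1. Myod1 had medians of 34.95 and 19.6 CPM in AL mice of the 2 sets and 23.5 and 20.5 CPM in IF mice. For Myf6 the medians were 76.5 and 72.9 CPM in AL mice of the 2 sets and 130.1 and 78.9 CPM in IF mice. The 4 slow fibre genes were all called higher in mice 25 to 40, where their sum reached 3237 CPM. Called in the same comparison were also Myh2 (higher), 2 of 3 proliferation genes tested (higher), 4 of 5 blood, 3 of 4 endothelial and 3 of 5 macrophage genes and 1 of 5 adipocyte genes (each lower), 1 of 2 neuron genes tested (lower), 1 of 4 fast fibre genes (lower), 3 of 5 muscle fibre genes (2 higher, 1 lower) and 5 of 12 satellite markers (2 higher, 3 lower). With the slow fibre sum as a covariate the same 3 members and also Mef2d (log2 0.12; edgeR, adjusted p = 0.0455, and 0.0656 to 0.0904 for Mef2d between mice 25 to 40 and mice 1 to 16 in muscle over the 4 other settings) were called.

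**Figure D3:**
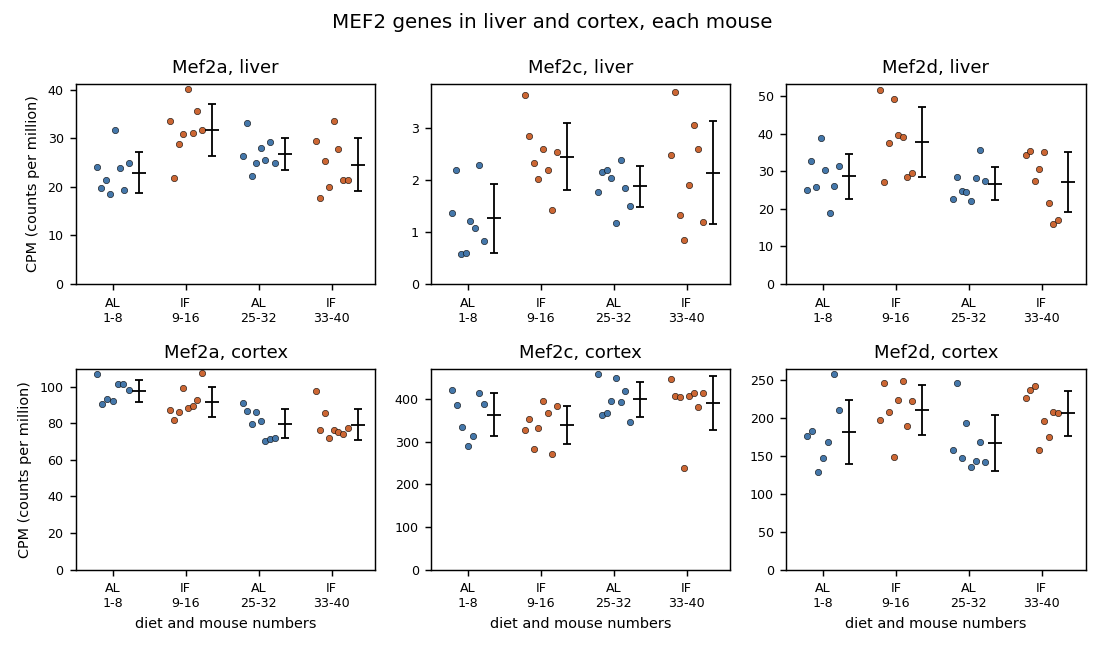
Levels of the MEF2 genes in every liver and cortex library used, in CPM on a linear axis from 0, by diet and mouse number; bars are the mean with its SD (n = 8, and n = 7 for cortex of AL mice 2 to 8). In liver, Mef2c stays under 4 CPM in each mouse, and in cortex it lies between 239 and 458 CPM.

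In liver of mice 1 to 16 the 3 MEF2 genes alone passed the expression filter, and 2 of them were called, both higher in IF mice, where 44.6% of 16204 genes were called. Mef2a, with 18.5, 22.6 and 31.7 CPM in AL and 21.8, 31.5 and 40.2 CPM in IF mice, had a log2 fold change of 0.37 (standard error 0.11; edgeR, adjusted p = 0.0113). Mef2c was rare, at 0.581, 1.14 and 2.28 CPM in AL and 1.42, 2.44 and 3.64 CPM in IF mice. It was above the AL median in 8 of 8 IF mice, and the groups overlapped. Its log2 fold change was 0.86 (standard error 0.30; edgeR, adjusted p = 0.0213). Mef2d had 18.9, 28.3 and 38.7 CPM in AL and 27.04, 38.3 and 51.6 CPM in IF mice, and its log2 difference of 0.30 did not pass (edgeR, adjusted p = 0.0731). Some markers of other cell types were also higher in these IF livers: the blood sum had a median of 569 CPM in AL and 2070.4 CPM in IF mice (3 of 5 genes called higher), the endothelial sum 55.5 and 84.9 CPM (1 of 4), and the macrophage sum 63.0 and 80.8 CPM (1 of 5). Of the neuron genes 1 of 2 tested was called higher, and of the liver genes 1 of 4 was called lower. Of the Schwann cell genes 2 of 3 tested were called higher, and the fibroblast genes were mixed, with 2 of 4 called higher and the other 2 lower but not called. Their part in the MEF2 differences was not tested.

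None of the 3 MEF2 genes was called in liver of mice 25 to 40, where 0% of 15938 genes were called in edgeR (0 of the 3 and 919 of all genes had an unadjusted p under 0.05, and DESeq2 called 0 and 6). Their log2 differences were -0.09 for Mef2a, 0.22 for Mef2c and 0.06 for Mef2d. The interaction of set and diet in liver called none of the 3 in edgeR, where 23.7% of 17658 genes were called. It was -0.42 for Mef2a (edgeR, unadjusted p = 0.0145, adjusted p = 0.0579), which DESeq2 called with adjusted p = 0.0492 (range over the 4 other settings of the Mef2a interaction in liver 0.0323 to 0.111).

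In cortex, Myod1 and the 3 MEF2 genes passed the filter, and none was called in mice 1 to 16 (0 of 4 in edgeR and in DESeq2, and 0 at an unadjusted p under 0.05), where 7.21% of 18462 genes were called. In mice 25 to 40 none of the 4 was called either (0 in DESeq2, 1 at an unadjusted p under 0.05), and 2 of 18403 genes were called (0.0109%). That 1 gene was Mef2d, with 136, 153 and 247 CPM in AL and 158, 208 and 242 CPM in IF mice. All 8 IF mice lay above the AL median, but the highest value was that of an AL mouse. Its log2 difference was 0.30 (95% interval 0.09 to 0.52; edgeR, unadjusted p = 0.00843, adjusted p = 0.355), beside 0.23 (95% interval -0.04 to 0.49) in mice 1 to 16. The interaction in cortex called 0 of the 4 (edgeR and DESeq2, 0 at an unadjusted p under 0.05), where 2.03% of 19547 genes were called.

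Partners of the myogenic factors were read from a list of 14 genes in muscle of mice 1 to 16, of which 2 were called higher and 1 lower in IF mice, beside 23.0% of all genes called (median log2 fold change 0.02, and 0.01 over all genes). The E proteins, with which myogenic factors form dimers, went in different directions. Tcf3 (E2A) had 17.4, 21.9 and 27.5 CPM in AL and 13.4, 16.6 and 17.9 CPM in IF mice, and fell by 0.52 on the log2 scale (edgeR, adjusted p = 0.000252). Tcf4 (E2-2) rose by 0.26 (edgeR, adjusted p = 0.00835), from a median of 25.5 to 32.2 CPM. Tcf12 (HEB), the remaining E protein, had medians of 10.1 and 10.9 CPM and was not called. Eya4, a transcriptional cofactor, had medians of 22.8 CPM in AL and 37.3 CPM in IF mice (log2 0.48; edgeR, adjusted p = 0.00440). None of the 4 Id inhibitors was called.

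Of 17 genes that regulate or accompany MEF2, 16 were tested, and 4 were called higher and 4 lower in IF mice, where 11.5% of all genes were called higher and 11.6% lower (median log2 fold change -0.16). Of the class IIa histone deacetylases, which repress MEF2, Hdac4 was called higher (log2 0.48) and Hdac5 lower (log2 -0.27). No other gene of that class was among the listed genes called. Sik1, a kinase that phosphorylates these deacetylases, had 3.29, 4.98 and 6.08 CPM in AL and 7.93, 9.66 and 11.1 CPM in IF mice. The groups did not overlap, and its log2 fold change was 0.88 (edgeR, adjusted p = 7.38e-06). Ppargc1a, the coactivator PGC-1alpha, rose from a median of 15.4 to 30.1 CPM (log2 0.70; edgeR, adjusted p = 0.000422). The calcineurin subunit Ppp3ca was also higher (log2 0.25), and Camk2b (-0.44), Srpk3 (-0.28) and Mapk14, which encodes p38 alpha (-0.23), were lower.

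Genes that follow myogenin or denervation formed a list of 15, of which 12 were tested and 3 were called higher and 1 lower, beside 23.0% of all genes called (median log2 fold change -0.01). Gadd45a had 9.08, 12.1 and 16.1 CPM in AL and 22.3, 28.2 and 41.3 CPM in IF mice, without overlap (log2 1.16; edgeR, adjusted p = 1.20e-05). Chrnb1, a subunit of the acetylcholine receptor, had 17.9, 23.3 and 26.2 CPM against 27.3, 31.1 and 40.5 CPM, also without overlap (log2 0.47; edgeR, adjusted p = 0.00284). Musk, the receptor kinase of the synapse, was 0.52 higher and Ncam1 fell by 0.49. Chrna1 had medians of 11.02 and 10.9 CPM. The receptor subunit of embryonic muscle, Chrng, and the fusion genes Mymk and Mymx were too low to be tested. In mice 25 to 40 none of the genes of these 3 lists was called in edgeR, while the interaction, in which 14.2% of all genes were called, called 3 of 14, 5 of 17 and 3 of 12 tested. It was above 0 for Tcf3, Hdac5, Camk2b, Srpk3 and Myh8 and below 0 for Tcf4, Eya4, Sik1, Ppargc1a, Chrnb1 and Gadd45a.

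Whether members vary together among mice of the same diet and set was read from correlations. Over the 32 muscle libraries, with the mean of each diet and set group subtracted, 1 of 28 pairs passed after adjustment over the 28 pairs. Mef2a and Mef2c rose and fell together, with Pearson's r = 0.678 (permutation test, two-sided, p = 3.00e-05, adjusted p = 0.000840) and Spearman's rho = 0.665 (permutation p = 9.00e-05, adjusted p = 0.00252). Over the same libraries Mef2a and Mef2c both varied against the adipocyte sum (r = -0.375 and -0.614), the macrophage sum (-0.366 and -0.548) and the Schwann cell sum (-0.487 and -0.309). They also varied against the satellite marker sum (-0.309 and -0.391) and the slow fibre sum (-0.372 and -0.292). The part of these sums in the correlation of the 2 genes was not tested. Pearson's r of the pair was 0.624 without the 2 libraries farthest from the median of Mef2a, 0.738 within mice 1 to 16 and 0.680 within mice 25 to 40. The next pair, Myog and Mef2c, had r = -0.482 (permutation p = 0.0117, adjusted p = 0.164) and rho = -0.501 (permutation p = 0.00642, adjusted p = 0.0899), with r = 0.00879 in mice 1 to 16 and -0.808 in mice 25 to 40. Without the 2 libraries farthest from the median of Myog, r of this pair over both sets was -0.354. Myf5 and Mef2a had r = 0.421 (permutation p = 0.0256, adjusted p = 0.239), with 0.613 in mice 1 to 16 and 0.0995 in mice 25 to 40. Without the 2 libraries farthest from the median of Myf5, r of that pair over both sets was 0.305. Myod1 and Myf6 had r = -0.376 (permutation p = 0.0592, adjusted p = 0.344), with -0.693 in mice 1 to 16 and -0.0250 in mice 25 to 40. A pair that did not pass is not shown to vary apart.

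The genes most like each member were sought among 14679 genes over the same 32 libraries, by r after subtraction of the group means. Sec23a (r = 0.911), Strap (0.896) and Pkia (0.891) were nearest to Mef2a, and Galnt1 (0.872), Atg4a (0.865) and Zfp91 (0.862) to Mef2c. Mef2d was most like Map3k3 (0.798), Spen (0.781) and Hdlbp (0.777). Myod1 lay nearest to Mrpl40 (0.846), Apba3 (0.784) and Grk2 (0.728). For Myf6 the nearest were Xpa (0.707), Pdcl3 (0.635) and Utp3 (0.629), and for Myog Tmem158 (0.666), Nme4 (0.665) and Vgll3 (0.662). Pax7 came closest to Mettl21c (0.698) and Rgs14 (0.666), and Myf5 to Tmem38b (0.641), Mettl21a (0.641) and Tirap (0.637). The highest of 14679 values is chosen by its size, so no p is given.

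In GRCm39 coordinates, Myf5 (ENSMUSG00000000435) and Myf6 (ENSMUSG00000035923) are neighbours on the minus strand of chromosome 10, at 107318769-107321995 and 107328714-107330598, with 6718 bases between them. Myod1 (ENSMUSG00000009471) lies at chr7:46025898-46028523 and Myog (ENSMUSG00000026459) at chr1:134217727-134220286, both on the plus strand. Pax7 (ENSMUSG00000028736) lies at chr4:139464373-139560839 on the minus strand. No other gene of the table overlaps these 5. Mef2c (ENSMUSG00000005583, chr13:83652153-83815199) and Mef2d (ENSMUSG00000001419, chr3:88049679-88079393), on the plus strand, are each overlapped by 1 gene of the other strand, which held at most 0.187 and 0.928 CPM in any muscle library. Mef2a (ENSMUSG00000030557, chr7:66880911-67022606, minus strand) is overlapped by 3 genes, the most abundant with at most 12.2 CPM in muscle. Its count is uncertain, since the reads shared with these genes were not measured.

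The 250 bases before the start that GENCODE gives for each of the 3 called members, which lies farther upstream than the start in the count table, are shown because these genes differ in direction between the diets, Myf6 and Myog higher and Myod1 lower in IF mice. They are given in build GRCm39, 5′ to 3′ on the strand of the gene. Capitals mark each E-box (CANNTG) and each full match to the MEF2 consensus YTAWWWWTAR. In it Y is C or T, W is A or T and R is A or G. A run that misses this consensus only in its last base, ctatatttat in the Myog window, is not marked. Both motifs read the same on either strand, and no marked matches overlap.
Myod1, chr7:46025620-46025869, plus strand: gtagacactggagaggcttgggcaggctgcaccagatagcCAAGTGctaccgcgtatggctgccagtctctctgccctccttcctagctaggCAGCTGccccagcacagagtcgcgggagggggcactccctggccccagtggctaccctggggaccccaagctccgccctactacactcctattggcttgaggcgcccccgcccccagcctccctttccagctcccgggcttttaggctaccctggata
Myog, chr1:134217457-134217706, plus strand: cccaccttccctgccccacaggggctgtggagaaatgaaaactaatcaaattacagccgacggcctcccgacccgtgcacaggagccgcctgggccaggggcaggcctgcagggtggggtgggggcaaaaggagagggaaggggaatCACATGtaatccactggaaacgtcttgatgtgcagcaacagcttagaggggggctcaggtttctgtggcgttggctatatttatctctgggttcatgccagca
Myf6, chr10:107330657-107330906, minus strand: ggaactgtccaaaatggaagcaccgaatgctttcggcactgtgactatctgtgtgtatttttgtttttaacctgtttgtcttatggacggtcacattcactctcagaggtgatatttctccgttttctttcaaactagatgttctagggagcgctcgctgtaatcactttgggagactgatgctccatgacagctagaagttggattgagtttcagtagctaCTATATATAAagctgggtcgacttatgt

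The Myod1 window holds 2 E-boxes, of which 1 is CAGCTG, the Myog window holds 1, and the Myf6 window holds none but has 1 match to the MEF2 consensus. Of 21757 windows of the same length before protein-coding genes, 66.5% hold CANNTG, 12.04% hold CAGCTG and 3.09% hold the MEF2 consensus. None of the 3 holds CACGTG, which 5.69% of all windows do. A match is a run of letters and does not show binding.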

How the data were processed

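The values used are the read counts per gene that the authors deposited, from poly-A libraries aligned to GRCm39 with Hisat2 and counted with featureCounts; the strand setting of the counting is not given in the sources used here. Levels per kilobase use the authors' gene length. The members and gene lists were chosen with earlier results of these data known.

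CPM were computed from the raw totals. Each comparison was fitted over all genes with edgeR 4.0.16 in R 4.3.3 (TMM scaling, expression filter with a minimum count of 10 and a minimum total of 15, robust quasi-likelihood test, Benjamini-Hochberg adjustment, threshold 0.05); errors of log2 fold changes are standard errors. Diets were compared within tissue and set, tissues among AL mice, and the sets by their main effect and their interaction with diet. Correlations used log2 CPM with a prior count of 2 and 100000 permutations within groups. Those between members used scaled totals, not the raw totals of the printed CPM. On raw totals 1 of 28 pairs also passed, and r of Mef2a and Mef2c was 0.673. At 26097314 to 49838004 counts per library, the floor of 3 counts in each library, averaged over the libraries of a group, stands for 0.0806 to 0.0881 CPM; floors and intervals cover counting error only.

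Alternatives were DESeq2's size factors in edgeR, DESeq2 1.42.0 itself, a filter on a total of 1 count, a filter that asks for 10 counts in each library, a replicate block, 1 fit per tissue, 7 mice per group, the omitted cortex library put back, each muscle mouse left out, TMM-scaled CPM, and, chosen after seeing the data, adipocyte or slow fibre sums as covariates and IF mice 9, 10 and 12 left out. By the labels, libraries of different tissues with 1 number come from 1 mouse; correlations of the deviations of muscle with liver or cortex of 1 AL mouse lay between -0.273 and 0.292, so the counts add little to this. Named are all members, listed genes called in a muscle diet fit, extreme or most abundant, and up to 3 genes most like each member; Tcf12, Cdh15, Chrna1, Chrng, Mymk, Mymx and genes called only in the interaction were named after their values were seen. Promoter windows end at the outermost start of each gene in GENCODE, on GRCm39.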

Additional observations from a re-analysis of the deposited data

Results flagged for a closer look

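Over 56 combinations of a member and a group of libraries, 4 held a mouse whose gap to the nearest other mouse was large beside the range of the group by Dixon's test, which chance gives in about 1 in 20. In muscle these were the 33.997 CPM of Myod1 in AL mouse 31, where the other 7 mice of its group lay lower, and the 11.5 CPM of Myog in IF mouse 34. In cortex the 239 CPM of Mef2c in IF mouse 36 stood below its group. In liver the 35.6 CPM of Mef2d in AL mouse 31 stood above it. The diet response of Myf6 in muscle differed between the sets, with an interaction of -0.40 on the log2 scale. The omitted cortex library of AL mouse 1 held 213 CPM of Xist although it is labelled male, and its cause was not tested.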

How the results depend on the processing

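Of 476 member fold changes under settings other than 1 mouse left out, 461 were on the same side of the threshold, 7 no longer passed, 8 newly passed and 0 called changes reversed. Changes that were not called turned in direction for Mef2c in muscle of mice 1 to 16 (0.08), and in those settings for Myog (0.02) and Mef2c (-0.01) in mice 25 to 40, each with the adipocyte sum as a covariate, and for Pax7 in mice 25 to 40 with the replicate block (0.01). Without 1 mouse, muscle of mice 25 to 40 gave -0.18 to 0.03 for Myf5, -0.00350 to 0.21 for Myod1, -0.17 to 0.05 for Myog, -0.14 to 0.11 for Pax7 and -0.01 to 0.07 for Mef2c, none called. In muscle of mice 1 to 16, Myf6 and Myod1 were called in 10 of 10 settings and without any 1 of the 16 mice. Myog was called in 3 of 10 settings and was not called without AL mouse 3, 5 or 8 or IF mouse 9, 10, 11 or 16 (adjusted p 0.0706, 0.0656, 0.0613, 0.0720, 0.0627, 0.0630 and 0.0773). Pax7 was called without AL mouse 4 or 6 or IF mouse 10 or 13 (adjusted p 0.0498, 0.0436, 0.0444 and 0.0393), and Myf5 without IF mouse 12 (0.0284). Under DESeq2 the genes called were 91 in muscle, 6 in liver and 73 in cortex of mice 25 to 40, 2259 in cortex of mice 1 to 16 and 706 for the interaction in cortex, and members called for the interaction were 2 in muscle and 1 in liver. With no filter beyond 1 count, 6 members were tested in liver. Of these, 1 was called for the interaction, which was not a MEF2 gene, and 3 for diet in mice 1 to 16. Under this filter the genes called were 5 in muscle of mice 25 to 40 and 220 for the interaction in cortex. The fit per tissue gave 38 in muscle and 4 in cortex of mice 25 to 40, and 2044 in cortex of mice 1 to 16. The replicate block gave 382 and 0 genes in cortex of mice 1 to 16 and of mice 25 to 40, and 3141 genes with 2 members in muscle of mice 1 to 16, although equal numbers pair no AL mouse with an IF mouse. Cortex of mice 1 to 16 had 498 genes called with 7 mice per group and 294 with the omitted library included. With at least 10 counts in each library, members called were 2 for the interaction in muscle, 1 for that in liver and 3 in each tissue comparison, where 3 were tested; genes called were 9630 and 9539 for muscle against liver and cortex in mice 1 to 16, and 9696 and 9574 in mice 25 to 40, among fewer genes tested. Muscle of mice 25 to 40 had 1 to 3 genes called without 1 mouse, 3 without AL mouse 27 and 2 without IF mouse 33. Apart from the stricter filter, where fewer genes were tested, the cause was not tested. No paired analysis was possible for the diets, the sets or their interaction because these are different animals. With TMM factors set within each tissue, all 55 group means lay within 1 SD of plain CPM. Myod1 in cortex (6 to 75 counts per library), Myf5 and Pax7 in muscle and Mef2c in liver rest on few counts. The muscle is not named, the hour of death of each mouse is not given, and cell types were not separated.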
